A study of Mus musculus with 18 samples.

Results

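Ldhal6b, Ezr, 1700010I14Rik, Pabpc6 and Qk are 5 genes that lie in this order near the centromeric end of mouse chromosome 17. They were selected on their levels in carriers of the t12 chromosome on these same arrays, together with their place on the chromosome, and they are 5 of the 15780 genes named on the array. RNA was measured on 18 Affymetrix arrays, each a biological replicate per the design text. Spermatocytes came from 2-month-old males and were separated by fluorescence-activated sorting. Pre-mid-pachytene cells came from Ttf+/+T43H (3 arrays), t12+/+T43 (3 arrays) and C57BL/10J (2 arrays), a strain the design text calls fertile. Mid-late-pachytene cells came from C57BL/10J alone (2 arrays). Whole testes without their outer coat were taken at an age of 15 days, on 3 arrays each for Ttf+/+T43H and t12+/+T43 and on 2 arrays for C57BL/6J. Both carrier stocks are kept on a C57BL/10J background and both carry the T43 (T43H) translocation between chromosomes 16 and 17, so they differ from each other in the second chromosome 17, Ttf or t12. The testis control is of another strain than the carriers, so strain and carrier state cannot be told apart there. The title of the study asks what follows in meiosis when unsynapsed autosomal chromatin is extended.

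As background, t haplotypes are variants of the proximal end of chromosome 17 that carry inversions and differ in sequence from the ordinary chromosome. Pachytene is the stage of meiotic prophase in which homologous chromosomes are held together along their length, and unpaired chromatin is transcriptionally silenced in it. In normal spermatogenesis many genes used later in spermatids are first switched on during pachytene. Ldhal6b encodes a lactate dehydrogenase-like protein of the testis, Pabpc6 a cytoplasmic poly(A)-binding protein of the kind that coats messenger RNA tails, and Ezr encodes ezrin, which ties actin filaments to the cell membrane. Qk encodes quaking, an RNA-binding protein of the STAR group that acts in splicing and RNA stability. 1700010I14Rik carries a clone name.

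All values are the authors' log2 GCRMA values, so a difference of 1 is a doubling, and values under 4 are close to background. Each gene was read by 1 probe set, and a level of one gene was not set against that of another. Whether sequence differences of the t12 chromosome change the signal of these probe sets was not tested. Differences that involve t12 carriers are therefore differences in signal. Every one of the 5 genes passed the filter on low values (at least 2 arrays of the fit at 4 or more) in sorted cells and in testes. Comparisons that hold t12 arrays may have been used to choose the genes and are given as description, with limma's standard error (SE) and no test. In bulk RNA, fewer cells of a type and less RNA per cell cannot be told apart.

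Replicate arrays correlated at 0.963 to 0.996 across genes in sorted cells and at 0.998 to 0.999 in testes. Replicate 2 of the sorted Ttf carriers and replicate 3 of the sorted t12 carriers stood apart from their groups. The first had a mean log2 value of 8.58 over 6 spermatogonial markers, against 6.06 and 6.48 on the other arrays of its group, and the second one of 10.27 over 4 Leydig cell markers, against 7.49 and 7.81. Pachytene markers (8 genes) averaged 11.31 to 12.49 on sorted arrays of all pre-mid-pachytene groups and 10.10 to 11.02 in testes, and of the 8 only Ccna1 was under 4 on every testis array. The 10 spermatid markers averaged 5.44 to 12.52 on sorted arrays, and all 10 were under 4 on every testis array. The 3′ minus 5′ signal of Gapdh was 2.51 to 3.98 in sorted cells and -0.12 to 0.14 in testes, as the log2 difference of its control probe sets.

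The promoters of the genes are shown because 3 of the genes moved together across arrays and the other 2 did not follow them. The RefSeq tables for GRCm38.p6 hold 4 of the 5 promoters. They hold none for Pabpc6, one of the 3 that moved together, so only 2 of those 3 are shown. Each promoter runs from 250 bases before to 50 bases after the start of the gene. The tables give the reference sequence, not that of the t12 chromosome. Capitals mark matches, on either strand, to TATAAA (the box named after it), to CCAAT, to AACNGTT (the core of MYB sites) or to GGGCGG (the GC box), and TGACG (the core of a cyclic AMP response element) was searched too.
Ldhal6b promoter, chr17:5418718-5419017, minus strand: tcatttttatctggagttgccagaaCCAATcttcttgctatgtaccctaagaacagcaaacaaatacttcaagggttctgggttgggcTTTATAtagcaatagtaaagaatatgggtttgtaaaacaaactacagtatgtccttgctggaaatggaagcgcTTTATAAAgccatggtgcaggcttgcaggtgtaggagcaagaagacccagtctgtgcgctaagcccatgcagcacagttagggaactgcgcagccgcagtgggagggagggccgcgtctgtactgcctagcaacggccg
1700010I14Rik promoter, chr17:8988083-8988382, plus strand: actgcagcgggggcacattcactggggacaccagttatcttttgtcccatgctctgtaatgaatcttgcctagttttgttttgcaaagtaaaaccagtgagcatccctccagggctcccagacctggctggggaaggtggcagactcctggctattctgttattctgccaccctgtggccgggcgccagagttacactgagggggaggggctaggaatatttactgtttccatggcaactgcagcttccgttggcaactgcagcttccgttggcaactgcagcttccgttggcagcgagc
Ezr promoter, chr17:6782731-6783030, minus strand: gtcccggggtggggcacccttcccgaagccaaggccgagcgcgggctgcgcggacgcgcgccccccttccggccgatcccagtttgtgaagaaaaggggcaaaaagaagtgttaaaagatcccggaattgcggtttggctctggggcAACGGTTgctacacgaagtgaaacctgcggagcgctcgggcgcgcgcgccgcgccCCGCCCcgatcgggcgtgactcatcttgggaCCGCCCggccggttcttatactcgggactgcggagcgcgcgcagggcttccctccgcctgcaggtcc
Qk promoter, chr17:10319312-10319611, minus strand: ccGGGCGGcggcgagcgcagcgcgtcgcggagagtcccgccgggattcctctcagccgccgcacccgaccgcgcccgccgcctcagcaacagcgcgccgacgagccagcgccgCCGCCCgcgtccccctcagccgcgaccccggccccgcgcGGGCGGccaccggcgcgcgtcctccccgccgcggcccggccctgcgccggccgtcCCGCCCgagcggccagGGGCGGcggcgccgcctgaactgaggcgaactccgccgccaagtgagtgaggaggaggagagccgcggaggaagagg
The promoter of Ldhal6b was 48.3% G or C and held 3 matches to TATAAA, beginning at -162, -89 and -87 from the start, of which the last 2 lie on opposite strands and overlap, and 1 CCAAT beginning at -225. That of 1700010I14Rik was 54.7% G or C and held none of the 5 motifs. The promoter of Ezr was 68.0% G or C, with 2 GC boxes and 1 AACGGTT, which reads as AACNGTT on both strands. The promoter of Qk was 81.7% G or C, with 5 GC boxes. Of all 32851 promoters of this length, 13.6% held TATAAA, 37.4% CCAAT, 20.8% TGACG, 4.45% AACNGTT and 35.7% GGGCGG. A match is a description of the letters and not a binding site.

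Ldhal6b, 1700010I14Rik and Pabpc6 were lower in testes of t12 carriers than in both other testis groups, while Ezr was higher there. 1700010I14Rik stood at 6.19, 5.97 and 5.48 in testes of t12 carriers, at 9.95, 9.65 and 9.24 in Ttf carriers and at 10.53 and 10.19 in C57BL/6J. All arrays of t12 carriers lay below all arrays of the other groups. Its level was -3.73 ± 0.23 (SE) against Ttf carriers, a 13.3-fold lower value, and -4.49 ± 0.26 against C57BL/6J, 22.4-fold lower. Pabpc6 stood at 4.64, 4.23 and 4.77 in t12 carriers, at 7.87, 7.39 and 7.07 in Ttf carriers and at 8.69 and 8.18 in C57BL/6J. The ranges did not overlap, and the t12 values lay just above the background level of 4, so the size of the difference is uncertain at its low end. It came to -2.90 ± 0.24 against Ttf carriers (7.45-fold lower) and to -3.89 ± 0.27 against C57BL/6J (14.8-fold lower).

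Ldhal6b, whose levels on all arrays were far above background, stood at 8.66, 8.49 and 7.73 in testes of t12 carriers. In Ttf carriers it stood at 10.75, 10.44 and 10.03, and in C57BL/6J at 10.999 and 10.65. Again no t12 array reached the others, with a difference of -2.11 ± 0.28 (4.33-fold lower) against Ttf carriers and of -2.53 ± 0.31 (5.78-fold lower) against C57BL/6J. Ezr stood at 9.91, 9.97 and 9.94 in t12 carriers, against 9.20, 9.17 and 9.15 in Ttf carriers and 8.96 and 9.28 in C57BL/6J. The t12 arrays were the highest, and the ranges of the other groups overlapped. The difference was 0.77 ± 0.08 (1.70-fold higher) against Ttf carriers and 0.82 ± 0.09 (1.76-fold higher) against C57BL/6J.

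Qk followed another order in testes. It stood at 5.12, 5.18 and 4.98 in t12 carriers and at 5.03 and 5.16 in C57BL/6J, with the same mean of 5.09 in both. In Ttf carriers it stood at 4.52, 4.47 and 4.49, below every array of the other groups. The difference between t12 and Ttf carriers, 0.60 ± 0.06 (1.52-fold), thus had the t12 arrays at the control level and the Ttf arrays under it. Against Ttf carriers the ranges of all 5 genes stood apart, where 4.99% of the 9134 genes tested were called at an adjusted p under 0.05, 1.07% higher and 3.92% lower. Against C57BL/6J those of 4 of 5 did, where 21.8% were called, 10.5% higher and 11.3% lower. Separate ranges and calls are different measures, and the share of all genes with separate ranges was not counted. Nothing is read from these counts, since the genes may have been chosen for these differences.

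**Figure D1:**
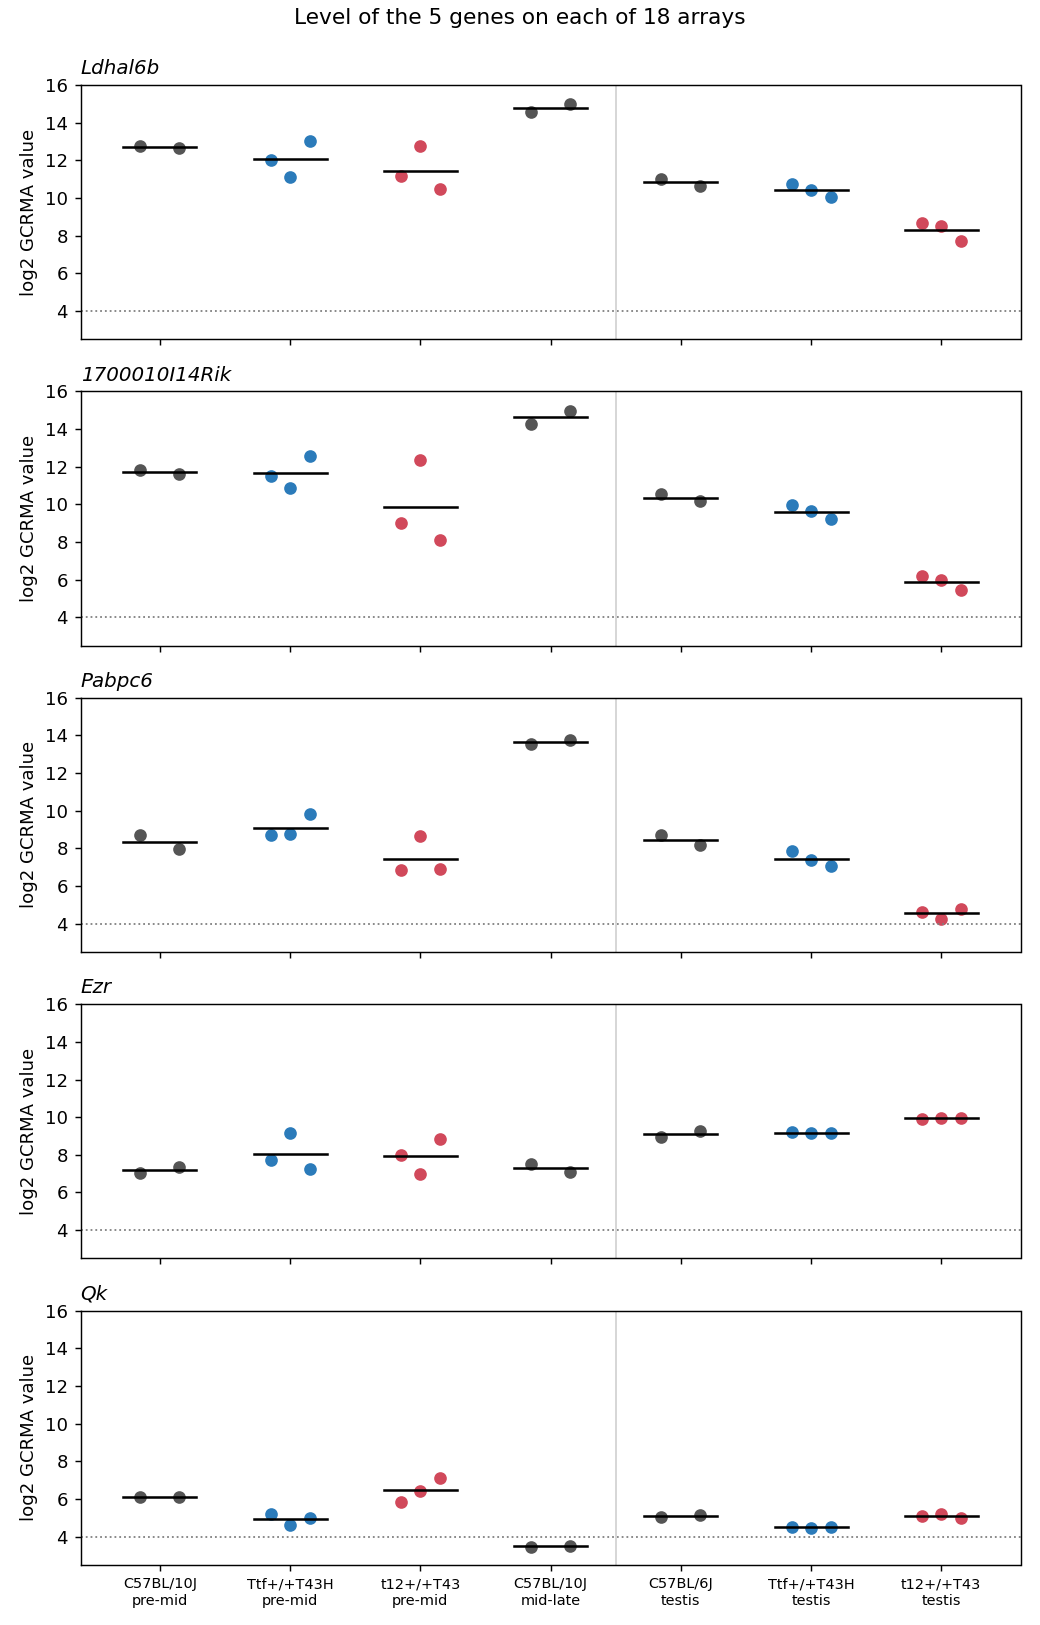
Level of each gene (vertical axis, log2 GCRMA value) on each of the 18 arrays, as points by group, with a bar at the group mean and a dotted line at 4, near background; sorted cells are left of the vertical line and testes right of it. Ldhal6b, 1700010I14Rik and Pabpc6 are highest in mid-late-pachytene cells and lowest in testes of t12 carriers, Ezr is highest in testes of t12 carriers, and Qk falls below 4 in mid-late-pachytene cells.

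The mean over the pachytene markers was also lowest in these testes. It was 10.10 to 10.49 in t12 carriers, 10.66 to 11.02 in Ttf carriers and 10.51 to 10.67 in C57BL/6J, without overlap between the carrier groups or between t12 carriers and C57BL/6J. Of the 7 tested, Ldhc fell against Ttf carriers and 6 did not pass (median -0.47). Against C57BL/6J, Ldhc fell, Dmc1, the meiotic recombinase gene, rose, and 5 did not pass (median 0.06). Whether these markers have a part in the levels of the 5 genes was not tested.

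In pre-mid-pachytene cells the same 3 genes had lower means in t12 carriers, but with wide spread. 1700010I14Rik stood at 9.03, 12.35 and 8.13 in t12 carriers, at 11.50, 10.88 and 12.55 in Ttf carriers and at 11.80 and 11.63 in C57BL/10J. Replicate 2 of the t12 carriers lay among the other groups, and the remaining 2 replicates below them. The difference was -1.81 ± 0.96 against Ttf carriers and -1.88 ± 1.07 against C57BL/10J, and without that replicate -3.06 and -3.14. Without replicate 3 of the t12 carriers it was -0.95 and -1.03. Pabpc6 stood at 6.85, 8.64 and 6.88 in t12 carriers, at 8.71, 8.74 and 9.81 in Ttf carriers and at 8.71 and 7.99 in C57BL/10J. Here the ranges of the carriers did not overlap, and those of t12 carriers and C57BL/10J did. The difference was -1.63 ± 0.52 against Ttf carriers and -0.89 ± 0.58 against C57BL/10J, the second -1.49 without replicate 2 of the t12 carriers, -0.59 without replicate 1, -0.60 without replicate 3 and -0.53 without replicate 1 of C57BL/10J. Ldhal6b stood at 11.15, 12.75 and 10.45 in t12 carriers, at 12.03, 11.12 and 13.04 in Ttf carriers and at 12.76 and 12.68 in C57BL/10J. The ranges overlapped, with differences of -0.62 ± 0.62 and -1.27 ± 0.70, and without replicate 2 of the t12 carriers of -1.27 and -1.92. Without replicate 3 of the t12 carriers they were -0.12 and -0.77, and the first was -0.13 without replicate 3 of the Ttf carriers and -1.09 without replicate 2 of them.

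Ezr varied widely within the sorted groups. It stood at 8.01, 6.96 and 8.82 in sorted cells of t12 carriers, at 7.73, 9.17 and 7.26 in Ttf carriers and at 7.04 and 7.36 in C57BL/10J. Its highest values fell on the 2 arrays that stood apart, and all ranges overlapped. The difference was -0.13 ± 0.57 against Ttf carriers, -0.01 without both of those arrays, and it ran from -0.57 to 0.43 as each array was left out in turn, so it has no settled direction. Against C57BL/10J it was 0.73 ± 0.64, and 0.28 without replicate 3 of the t12 carriers to 1.21 without replicate 2. Qk stood at 5.84, 6.41 and 7.14 in t12 carriers, at 5.21, 4.62 and 5.01 in Ttf carriers and at 6.11 and 6.13 in C57BL/10J. As in testes, the Ttf arrays lay below all others and the t12 arrays overlapped the controls. The difference was 1.52 ± 0.32 (2.86-fold) against Ttf carriers, or 1.02 without both arrays that stood apart, and 0.34 ± 0.36 against C57BL/10J. The second was 0.01 without replicate 3 of the t12 carriers and 0.66 without replicate 1. Between the carrier groups the ranges of 2 of the 5 genes stood apart, where 0.755% of the 9666 genes tested were called, 0.0621% higher and 0.693% lower. Between t12 carriers and C57BL/10J those of 0 of 5 did, where 9.07% were called, 3.24% higher and 5.83% lower. Separate ranges and calls are again different measures, and nothing is read from these counts.

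Spermatid markers differed between the same sorted cells. Their mean was 5.44, 7.88 and 5.44 in t12 carriers, 10.17 to 10.77 in Ttf carriers and 11.91 to 12.52 in C57BL/10J. Between the carrier groups 5 of 10 fell by limma's test, and 10 of 10 against C57BL/10J. The array of the t12 carriers with the highest spermatid mean, replicate 2, was also the one with the highest Ldhal6b, 1700010I14Rik and Pabpc6 of its group. Mid-late-pachytene cells had spermatid means of 9.09 and 9.75, under those of the C57BL/10J pre-mid-pachytene cells, and higher levels of all 3 genes. These 2 groups also differ in stage. Leydig cell markers averaged 7.49 to 10.27 in t12 carriers, 6.57 to 8.05 in Ttf carriers and 3.66 and 5.45 in C57BL/10J. The part of these markers in the levels of the 5 genes was not tested.

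**Figure D2:**
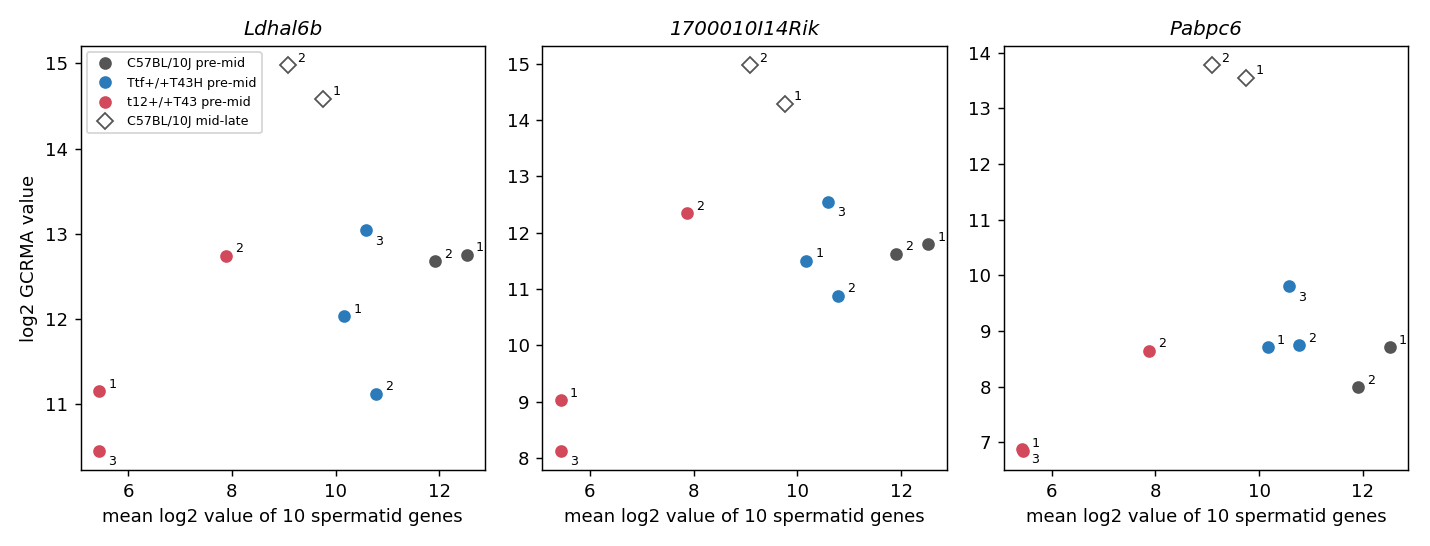
Level of Ldhal6b, 1700010I14Rik and Pabpc6 (vertical axes, log2 GCRMA value, with a scale for each panel that does not begin at 0) against the mean log2 value of 10 spermatid markers (horizontal axes) on the 10 sorted-cell arrays, with replicate numbers beside the points. Replicates 1 and 3 of the t12 carriers sit at the lower left in each panel, replicate 2 sits higher on both axes, and the mid-late-pachytene arrays have the highest levels of each gene at marker means of 9.09 and 9.75.

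The difference between t12 and Ttf carriers was set side by side in both tissues in a fit of all 18 arrays. Testes minus sorted cells, it was -1.50 ± 0.75 for Ldhal6b, -1.93 ± 1.11 for 1700010I14Rik and -1.27 ± 0.63 for Pabpc6. It was 0.89 ± 0.64 for Ezr and -0.92 ± 0.35 for Qk. No test was made, since both parts may have been used to choose the genes.

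Comparisons without t12 arrays were tested, although the arrays of the Ttf carriers and the controls also stand in comparisons that may have served the choice. In testes, Ttf carriers had Qk lower than C57BL/6J by -0.60 ± 0.07 (1.52-fold; limma, adjusted p = 0.00411), with 3 of 3 Ttf arrays below both controls. The Qk means of t12 carriers and C57BL/6J were the same (5.09), so this difference mirrors the one between the carriers. That one may have served the choice, so the p-value is not separate support. Pabpc6 differed by -0.99 ± 0.27 (adjusted p = 0.0669) and 1700010I14Rik by -0.75 ± 0.26 (adjusted p = 0.13), each with 3 of 3 Ttf arrays below both controls, and neither passed. Ldhal6b differed by -0.42 ± 0.31 (adjusted p = 0.449), with overlapping ranges, and Ezr by 0.05 ± 0.09 (adjusted p = 0.762). Ldhal6b was at -0.23 without replicate 3 of the Ttf carriers and at -0.24 without replicate 1 of C57BL/6J. Ezr was at -0.11 without replicate 1 of C57BL/6J and at 0.22 without replicate 2, so it has no settled direction. So 1 of 5 genes was called, where 8.56% of all genes tested were, 3.86% higher and 4.7% lower. Pabpc6 was called without replicate 1 of the Ttf testes (-1.20, adjusted p = 0.0423), and at a filter of 6 Qk was not tested. Leydig cell markers averaged 4.99 to 8.94 in Ttf carriers and 8.77 to 9.38 in C57BL/6J, and their part was not tested.

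In pre-mid-pachytene cells of Ttf carriers, 0 of the 5 genes were called against C57BL/10J by limma, where 2.06% of all genes were, 0.59% higher and 1.47% lower. Among the 5, 1 (Qk) had an unadjusted p under 0.05. Qk differed by -1.17 ± 0.36 (adjusted p = 0.141) with all 3 Ttf arrays below both controls, and by -1.01 (adjusted p = 0.0555) without both arrays that stood apart. Pabpc6 differed by 0.74 ± 0.58 (adjusted p = 0.576), Ldhal6b by -0.65 ± 0.70 (adjusted p = 0.703), Ezr by 0.85 ± 0.64 (adjusted p = 0.548) and 1700010I14Rik by -0.07 ± 1.07 (adjusted p = 0.997). Without both arrays that stood apart, Ezr differed by 0.30 and Ldhal6b by -0.18. Leaving out replicate 3 of the Ttf carriers gave -1.14 for Ldhal6b, -0.52 for 1700010I14Rik and 0.38 for Pabpc6, which was also 0.38 without replicate 2 of C57BL/10J. 1700010I14Rik was at 0.31 without replicate 2 of the Ttf carriers.

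The normal course of the 5 genes through pachytene was read from C57BL/10J, as mid-late against pre-mid-pachytene cells. Pabpc6 rose from 8.71 and 7.99 to 13.55 and 13.77, a rise of 5.31 ± 0.64 (39.7-fold; limma, adjusted p = 1.31e-04), the 170th highest of 9666 genes. Ldhal6b rose from 12.76 and 12.68 to 14.59 and 14.98, by 2.07 ± 0.76 (4.19-fold; adjusted p = 0.0456). That call was lost whichever of the 4 arrays was left out, with adjusted p from 0.103 to 0.17. 1700010I14Rik stood at 11.80 and 11.63 and then at 14.28 and 14.97, a difference of 2.91 ± 1.18 (7.53-fold; adjusted p = 0.0623) that did not pass and that had adjusted p = 0.0371 without both arrays that stood apart, which share in the estimate of the spread. For all 3 genes both mid-late arrays lay above both pre-mid arrays. Qk fell from 6.11 and 6.13 to 3.43 and 3.52, by -2.64 ± 0.40 (adjusted p = 4.83e-04), and since the later values are near background the size of the fall is uncertain. Ezr stood at 7.04 and 7.36 and then at 7.51 and 7.10, a difference of 0.10 ± 0.70 (adjusted p = 0.922). So 3 of 5 genes were called, 2 higher and 1 lower, where 56.5% of all genes tested were, 26.2% higher and 30.3% lower. The median of all named genes was 5.07 in the earlier and 4.56 in the later cells, and centring arrays on it gave 3.43 for 1700010I14Rik (adjusted p = 0.0305). Sertoli cell markers averaged 5.67 and 5.73 in the earlier and 3.76 and 3.90 in the later cells, and their part was not tested.

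Sorted cells and testes differ in their 3′ to 5′ signal, and which arrays were normalized together is not given in the sources used here, so steps between the tissues rest on the deposited scale. Ranked by group mean, Ldhal6b, 1700010I14Rik and Pabpc6 had mid-late-pachytene cells at the top and testes of t12 carriers at the bottom, and each end was separate from its neighbour in rank. In the middle of the order few neighbours differed beyond their spread. For Ldhal6b none of the 4 inner steps was free of overlap, and for 1700010I14Rik and Pabpc6 the step from Ttf carriers' pre-mid-pachytene cells to C57BL/6J testes was. For Ezr the only separate step was at the top, from testes of t12 carriers to testes of Ttf carriers. Qk had separate steps from C57BL/10J pre-mid-pachytene cells to C57BL/6J testes, from sorted cells to testes of Ttf carriers, and from there to mid-late-pachytene cells, which were the lowest.

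Genes that normally rise late in pachytene were set beside the 3 lower genes, with a rise of at least 2 log2 units in C57BL/10J as the bound, chosen after the values were seen. Of the 948 others tested in testes, 677 had a lower level in t12 than in Ttf carriers, with a median of -0.16 and a range from the 5th to the 95th percentile of -1.49 to 0.20. Of the 948, 13 were as low as Ldhal6b (-2.11), 1 as low as Pabpc6 (-2.90) and 0 as low as 1700010I14Rik (-3.73). The 1 was the small heat shock protein gene Hspb9, named after its value was seen. On chromosome 17 there were 49 such genes, with a median of -0.17, and 1 was as low as Ldhal6b, the axonemal dynein heavy chain gene Dnah8. Between t12 carriers and C57BL/6J the median was -0.21 over all 948 and -0.55 over the 49, of which 41 were below 0. There 26 of the 948 were as low as Ldhal6b, 2 as low as Pabpc6 and 1 as low as 1700010I14Rik, and 3 of the 49 were as low as Ldhal6b. Between Ttf carriers and C57BL/6J the medians were -0.04 and -0.33, with 44 of the 49 below 0. The last 2 comparisons share the C57BL/6J arrays. The 3 genes may have been chosen for their t12 differences, so their place among the late-rising genes is partly set by the choice.

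**Figure D3:**
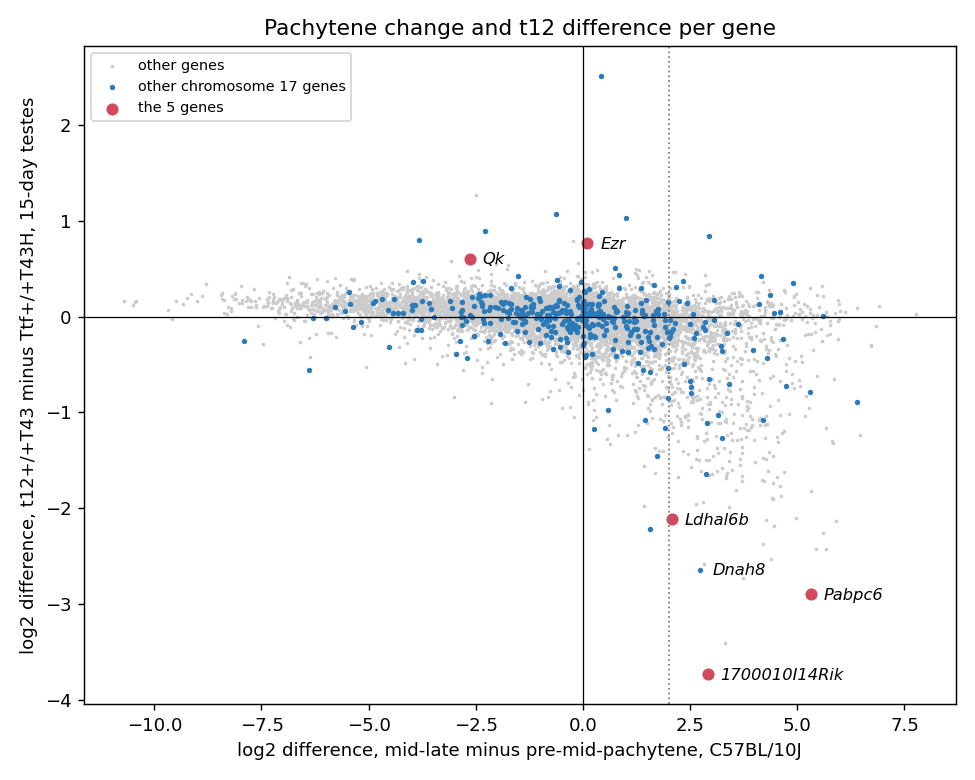
Each point is a gene tested in both tissues: the horizontal axis is the log2 difference between mid-late and pre-mid-pachytene cells of C57BL/10J, the vertical axis that between t12+/+T43 and Ttf+/+T43H testes, and the dotted line marks a rise of 2. 1700010I14Rik, Pabpc6 and Ldhal6b sit at the lower right at -3.73, -2.90 and -2.11 on the vertical axis, while Ezr and Qk sit above 0 at 0.77 and 0.60.

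The closest patterns over the 18 arrays, by Pearson correlation among 10623 genes, were found for each gene. The points share tissue, stage and labelling, so the coefficients describe these arrays. Ldhal6b was most like Ms4a13 (0.982), Dnah8 (0.98) and the malate dehydrogenase gene Mdh1b (0.975). 1700010I14Rik was most like Dnah8 (0.978), Ldhal6b (0.975) and the fructose bisphosphatase gene Fbp1 (0.971). Pabpc6 was most like Limd2 (0.971), 1700028J19Rik (0.97) and Spag6l (0.969), and it correlated at 0.946 with 1700010I14Rik and at 0.928 with Ldhal6b. Ezr was most like Rcan3 (0.972), Fbxo22 (0.958) and Efemp1 (0.955), and ran against Ldhal6b at -0.904. Qk was most like Capza2 (0.935), Fbxo8 (0.918) and the tyrosine kinase gene Yes1 (0.914). Of the 10623 genes, 4.95% lay on chromosome 17. Of the 20 genes most like each, 3 lay there for Ldhal6b, 3 for 1700010I14Rik, 3 for Ezr, 1 for Pabpc6 and 0 for Qk. Some of these are among the 5 chosen genes, 1700010I14Rik for Ldhal6b, and Ldhal6b and Pabpc6 for 1700010I14Rik, so the counts are partly set by the choice.

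Dnah8, farther along the chromosome at place 257 of the 743 array genes of chromosome 17, had levels close in shape to those of the lower 3. Its mean was 13.58 ± 0.04 (SD, n = 2) in mid-late-pachytene cells, 8.47 ± 0.63 (n = 3) in testes of Ttf carriers, 8.97 ± 0.21 (n = 2) in C57BL/6J and 5.82 ± 0.26 (n = 3) in t12 carriers. Between the carriers' testes it differed by -2.64 ± 0.30. It was picked for its likeness, so these values have no test.

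On the chromosome the 5 genes are the 7th (Ldhal6b), 14th (Ezr), 21st (1700010I14Rik), 22nd (Pabpc6) and 23rd (Qk) array genes from the centromeric end, with 18 others among them. These 18 neighbours are what was left of the stretch after the choice of the 5 genes. How the 5 differ from them in t12 comparisons is therefore partly set by the choice, as are the neighbours' own calls there. Of these neighbours 9 could be tested in testes. Between t12 and Ttf carriers 2 of the 9 rose by limma, none fell, and the median was 0.10, beside 0.02 for all genes tested. Of all genes tested, 1.07% rose and 3.92% fell there. Zdhhc14, a palmitoyltransferase gene next to Ldhal6b, rose by 0.84 ± 0.09 (adjusted p = 0.0165) and the centrosomal gene Cep43 by 0.32 ± 0.05 (adjusted p = 0.0358). Tmem242, on the other side of Ldhal6b, differed by -0.07 ± 0.05 (adjusted p = 0.398). The lowest difference among the 9 was the -0.15 ± 0.08 of Gtf2h5, which encodes a subunit of the transcription factor TFIIH (adjusted p = 0.269). Pde10a, a phosphodiesterase gene next to 1700010I14Rik, was too low for testing in testes. Against C57BL/6J, 1 of the 9 rose in t12 carriers, Zdhhc14, and 1 fell, Tmem242, where 10.5% of all genes tested rose and 11.3% fell.

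In Ttf carriers 3 of the 9 neighbours fell against C57BL/6J and none rose, with a median of -0.10 beside 0.00 for all genes. Of all genes tested, 4.7% fell and 3.86% rose there. Cep43 fell by -0.42 ± 0.06 (adjusted p = 0.00757), Zdhhc14 by -0.45 ± 0.10 (adjusted p = 0.042) and Tmem242 by -0.25 ± 0.05 (adjusted p = 0.0338). Zdhhc14 and Cep43, like Qk, thus had their lowest testis level in Ttf carriers, and the Ttf arrays stand in both comparisons. Just beyond Qk, among the next 18 array genes, 11 were tested and 2 fell between t12 and Ttf carriers, the exonuclease gene Pnldc1 (-0.34 ± 0.06, adjusted p = 0.0358) and the chaperonin subunit gene Tcp1 (-0.40 ± 0.07, adjusted p = 0.0365), with a median of -0.00. Both were named after their values were seen. Against C57BL/6J, 5 of the 11 fell and 1 rose in t12 carriers (median -0.02), and 4 fell and 1 rose in Ttf carriers (median -0.26). Of all genes tested, 3.92% fell between the carriers. Against C57BL/6J, 11.3% of all genes fell and 10.5% rose in t12 carriers, and 4.7% fell and 3.86% rose in Ttf carriers. Agpat4 and Map3k4, the nearest to Qk on that side, differed by -0.27 ± 0.09 (adjusted p = 0.114) and -0.08 ± 0.07 (adjusted p = 0.507).

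**Figure D4:**
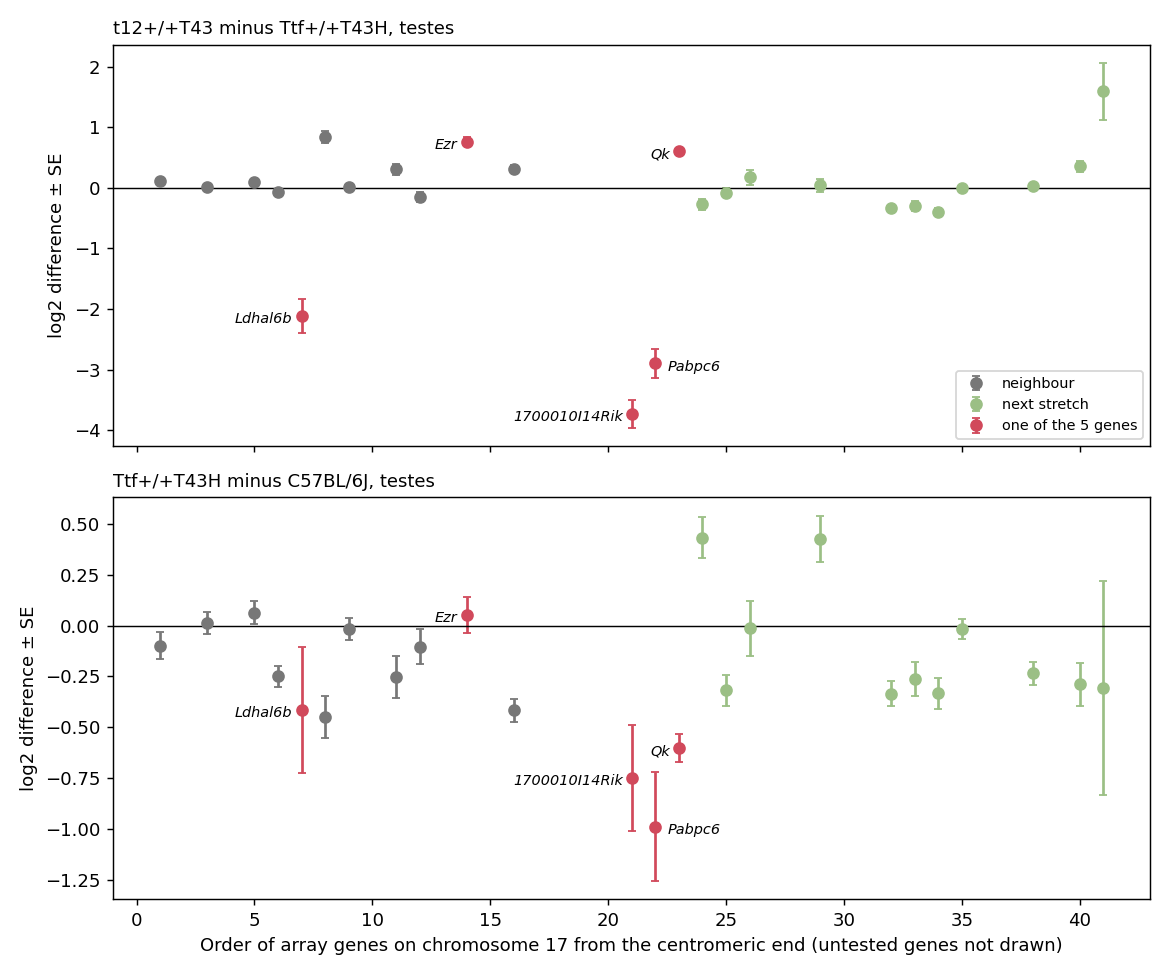
Log2 difference with its SE (vertical axis) of the tested array genes in their order from the centromeric end of chromosome 17 (horizontal axis), for t12+/+T43 minus Ttf+/+T43H testes above and Ttf+/+T43H minus C57BL/6J testes below, with a scale for each panel; grey points are the neighbours, green points the next stretch and red points the 5 genes. In the upper panel Ldhal6b, 1700010I14Rik and Pabpc6 lie at -2.11, -3.73 and -2.90, while the 9 tested neighbours lie between -0.15 and 0.84. The neighbours are what was left of the stretch after the choice of the 5 genes, so this contrast is partly set by the choice.

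In sorted cells 10 neighbours were tested. None was called between the carriers (median -0.05, beside 0.05 for all genes), between t12 carriers and C57BL/10J (-0.20, beside 0.06) or between Ttf carriers and C57BL/10J (-0.14, beside 0.01), by limma; 0, 1 and 0 of the 10 had an unadjusted p under 0.05. From pre-mid to mid-late pachytene 4 rose and 3 fell, where 56.5% of all genes tested were called, 26.2% higher and 30.3% lower. Pde10a rose from a mean of 2.29, under background, to 6.42 (adjusted p = 3.05e-06), so the size of its rise is uncertain. Zdhhc14 rose by 2.94 ± 0.69 (adjusted p = 0.00573), while Gtf2h5 fell by -1.53 ± 0.44 (adjusted p = 0.0149). Of the next stretch 13 genes were tested in sorted cells. Tcte2, a gene named for its place in the t complex, fell in t12 carriers by -2.46 ± 0.41 against Ttf carriers (adjusted p = 0.0414) and by -2.60 ± 0.46 against C57BL/10J (adjusted p = 0.0103). Tcp10c fell by -5.60 ± 1.41 against C57BL/10J (adjusted p = 0.0429) and differed by -4.65 ± 1.26 against Ttf carriers (adjusted p = 0.182). In sorted t12 carriers Tcte2 stood at 2.36 to 2.98, under the background level of 4. Tcp10c ran there from 2.01 to 7.89 with a median of 3.17, so the sizes of these differences are uncertain. Both were named after their values were seen, and the other genes of the stretch were not called in these 2 comparisons.

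The families of the genes were read without the genes themselves. Among lactate dehydrogenases, 3 of 4 relatives on the array were tested. Ldhc, the lactate dehydrogenase of spermatocytes and sperm, fell in testes of t12 carriers by -1.28 ± 0.24 against Ttf carriers (adjusted p = 0.0398) and by -1.37 ± 0.27 against C57BL/6J (adjusted p = 0.0136), beside the -2.11 and -2.53 of Ldhal6b. Ldhb and Uevld were not called between the carriers. Ldhb, the heart-type subunit, was higher by 2.10 ± 0.48 in sorted cells of t12 carriers than in C57BL/10J (adjusted p = 0.0303), and fell by -5.85 ± 0.53 from pre-mid to mid-late pachytene (adjusted p = 2.69e-05).

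Of 8 relatives and partners of Pabpc6 on the array, 5 were tested and none was called between the carriers in testes. Pabpc2, another poly(A)-binding protein gene, came nearest to Pabpc6 in its values. It differed by -1.77 ± 0.40 between the carriers in testes (adjusted p = 0.052) and by -1.96 ± 0.42 in sorted cells (adjusted p = 0.0872), neither of which passed. It fell by -1.64 ± 0.45 in testes of t12 carriers against C57BL/6J (adjusted p = 0.0402) and rose by 4.60 ± 0.51 from pre-mid to mid-late pachytene (adjusted p = 8.29e-05). Paip2b, an inhibitor of poly(A)-binding proteins, moved the other way through pachytene, falling by -5.88 ± 0.25 (adjusted p = 5.64e-07). In sorted cells it fell in Ttf carriers by -1.52 ± 0.23 (adjusted p = 0.019) and in t12 carriers by -1.31 ± 0.23 (adjusted p = 0.00991), both against the same C57BL/10J arrays.

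Among relatives and partners of Ezr, 8 of 10 were tested in testes and 0 were called between the carriers by limma (1 at an unadjusted p under 0.05). Rdx and Msn, which encode radixin and moesin, differed by 0.01 ± 0.04 (adjusted p = 0.857) and 0.02 ± 0.06 (adjusted p = 0.835), beside the 0.77 of Ezr. Pdpn, a membrane protein that binds ezrin, fell in both carriers against C57BL/6J, by -0.71 ± 0.06 in Ttf (adjusted p = 9.9e-04) and by -0.72 ± 0.06 in t12 carriers (adjusted p = 6.66e-04). Those comparisons share the C57BL/6J arrays.

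Of 4 other STAR protein genes, 3 were tested. Khdrbs3 fell in testes of t12 carriers by -1.03 ± 0.16 against Ttf carriers (adjusted p = 0.0326) and by -1.17 ± 0.18 against C57BL/6J (adjusted p = 0.0057). It differed by -0.14 ± 0.18 between Ttf carriers and C57BL/6J (adjusted p = 0.682), where Qk was called. Through pachytene Khdrbs3 rose by 1.90 ± 0.62 (adjusted p = 0.0282) while Qk fell. Khdrbs1 and Sf1 were not called in any of the 7 comparisons.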

How the data were processed

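Per the labels' protocols, 20 to 30 ng of RNA were labelled in 2 cycles for Affymetrix arrays. Per the submitters' processing notes, GCRMA (background correction, normalization across arrays and probe summary) gave the log2 values that the authors deposited. Which arrays were normalized together, and its version, are not given in the sources used here. Of 16539 probe sets, 1 per Entrez gene, 15780 carry 1 gene symbol, and 759 unnamed ones were left out. RefSeq (GRCm38.p6) matched 15752 symbols and gave the order of 743 genes on chromosome 17. Values of single probes were not analysed here.

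Values were used as deposited. Genes with at least 2 arrays at a log2 value of 4 or more were fitted with limma 3.58.1 in R 4.3.3 (lmFit with 1 mean per group, eBayes), separately for 10 sorted-cell arrays (9666 genes), 8 testis arrays (9134 genes) and all 18 arrays (10623 genes). The script was tested on simulated data. Tests were two-sided, with Benjamini-Hochberg adjustment over all genes of a comparison and calls at an adjusted p under 0.05. Arrays give no read depth; their number limits the precision.

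The 5 genes, the lists, the markers and the alternatives were chosen with earlier results of these data known. Named beside them are the 3 nearest array genes on each side, family genes, marker genes and the 3 genes most correlated with each. Replicate numbers are not stated to mark animals or days, so the main fits did not pair by them. Same-numbered deviations of the 2 carrier groups correlated at -0.335 to 0.235 in sorted cells. In testes they correlated at 0.455, 0.02 and 0.66 for replicates 1, 2 and 3. Whether testis arrays of the same number shared a day or batch was not tested. The alternatives were no filter or a filter at 6, quantile normalization, median centring, only the groups compared, an intensity trend with robust estimation, a replicate block, and leaving out arrays.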

Additional observations from a re-analysis of the deposited data

Results flagged for a closer look

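The level of Pabpc6 in Ttf carriers moved in opposite directions against the controls of the 2 tissues. In testes it was -0.99 (log2) against C57BL/6J, with 3 of 3 Ttf arrays below the mean of the controls. In pre-mid-pachytene cells it was 0.74 against C57BL/10J, with 3 of 3 Ttf arrays above the mean of the controls. Neither difference passed its own test, the controls are of different strains, and the difference between the tissues was not tested.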

How the results depend on the processing

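The values of the 5 genes numbered 242 under other processing and 200 with arrays left out. Of these, 236 and 192 stayed called or not called as before or, untested, moved within the spread (the pooled SD of the 2 groups), and 6 and 8 did not. For untested values these totals are largely set by the rule. Filters, fitting only the groups compared and the intensity trend leave the log2 difference unchanged. Leaving out 1 array from a group of 3 cannot move it beyond the spread. The totals are therefore not a measure of stability. Among values not called or not tested, the sign turned in 2 under other processing and in 8 with arrays left out. All of them were Ezr between sorted carriers (3), through pachytene (2) and in testes of Ttf carriers (1), and 1700010I14Rik in sorted cells of Ttf carriers (4). Qk between testes of t12 carriers and C57BL/6J, at 0, has no sign to keep. Qk in testes of Ttf carriers kept its call in 11 of 11 alternatives (leave-one-out -0.66 to -0.54, limma adjusted p 0.0127 to 0.0431). That difference mirrors the one between the carriers, which may have served the choice. The rise of Ldhal6b through pachytene was not called with no filter (adjusted p = 0.068) or with a replicate block (0.0867). That of 1700010I14Rik was called when only its groups were fitted (adjusted p = 7.01e-04). At a filter of 6, where Qk was not tested, the median of the genes went from -2.11 to -2.51 between carriers' testes and from -2.53 to -3.21 against C57BL/6J. It was -2.30 to -1.83 and -2.71 to -2.25 as arrays were left out.

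In testes of Ttf carriers 0 of the genes were called at a filter of 6, and 1 to 2 as arrays were left out (2 without replicate 1 of the Ttf carriers). What the replicate numbers stand for is not stated. With them as a replicate block 3 were called by limma, Qk, 1700010I14Rik (-0.56, adjusted p = 0.00225) and Pabpc6 (-0.95, adjusted p = 0.0293).

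The median of the neighbours tested (9 in testes and 10 in sorted cells, more with no filter) is small and moved with settings. With no filter it was 0.005 between carriers' testes, -0.002 for Ttf carriers against C57BL/6J and -0.026 for Ttf carriers against C57BL/10J. The last was -0.215 with quantile normalization, -0.268 with median centring, -0.220 with only its groups, -0.211 without both arrays that stood apart and -0.211 to 0.003 as arrays were left out, 0.003 without replicate 3 of the Ttf carriers. Between sorted carriers it was 0.182 with median centring. For sorted t12 carriers against C57BL/10J it was -0.429 without both arrays that stood apart, and -0.429 to -0.126 as arrays were left out. Through pachytene it turned positive with no filter (0.297), quantile normalization (0.134) and median centring (0.341), and was -0.655 to -0.074 as arrays were left out. The cause was not tested.

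Counts of called genes over all genes moved more. Between carriers' testes 456 became 149 with no filter, 36 with only those groups, 1703 with a replicate block and 9 to 900 as arrays were left out. Between sorted carriers 73 became, in that order, 15, 12, 0 (869 at an unadjusted p under 0.05, limma) and 13 to 411, and 0 without both arrays that stood apart (825 unadjusted). For t12 carriers against controls, 1994 in testes became 596 to 1644 as arrays were left out, and 877 in sorted cells became 420 with only those groups, 400 with a block and 141 to 1391. For Ttf carriers 782 in testes became 490 with only those groups, 2139 with a block and 176 to 827 as arrays were left out. In sorted cells 199 became 18 with a block, 542 without both arrays that stood apart and 0 to 368 as arrays were left out, 0 without replicate 1 of C57BL/10J (850 unadjusted, limma). Through pachytene 5464 became 8867 with no filter. Signal near background limits Qk and the lowest Pabpc6 values.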
